A study of Mus musculus with 9 samples.

Results

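Tripartite motif (TRIM) proteins are a family of ubiquitin ligases, and the arrays held 57 probe sets for 57 of their genes besides Trim71, out of 19938 named genes and 35557 probe sets, named or not, in all. A probe set was taken where the array annotation gave it exactly 1 gene symbol and that symbol was Trim with a number and at most 1 further letter. The cells were mouse embryonic stem (ES) cells of genotype Dgcr8 -/-, so all 9 samples lacked Dgcr8, a protein needed to cut most microRNA precursors. In 3 samples each, the cells had received a synthetic mimic of let-7c at 50 nM, a mimic of miR-294 at 50 nM, or a mock transfection, and all were kept without leukaemia inhibitory factor (LIF) until harvest at 12 h. No group had an unrelated mimic, so any difference from mock includes the effect of transfected small RNA as such.

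Most TRIM proteins carry a RING domain that passes ubiquitin to a target, 1 or more B-box domains and a coiled coil, followed by a C-terminal domain that selects the target. Those with a PRY-SPRY domain include many antiviral factors, those with a PHD finger and a bromodomain act on chromatin, those with NHL repeats bind RNA or proteins, and those with a COS box associate with microtubules or the sarcomere. In ES cells the best known member of this set is Trim28 (KAP1), the corepressor that zinc finger proteins bring to retroelements. A microRNA lowers transcripts that pair with its seed, the bases near its 5′ end. The mature sequences of both microRNAs are shown because they define the comparison, with the seed, bases 2 to 8, in capitals. They come from RefSeq on GRCm38.p6, where let-7c is encoded at chr16:77599672-77599693 and chr15:85706616-85706637 and miR-294 at chr7:3220691-3220712, all on the plus strand.
mmu-let-7c-5p: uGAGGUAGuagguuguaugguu
mmu-miR-294-3p: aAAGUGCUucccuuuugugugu
The seeds differ, and a perfect match in a transcript would read CUACCUC for let-7c and AGCACUU for miR-294. Transcript sequences of the members were not used here, so no match was counted.

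Values are log2 intensities as deposited, read as log2 from their range because no header states the scale. A gene was tested if at least 3 of the 9 arrays lay above their own 40th percentile of all probe sets, a level between 6.84 and 6.90. By this rule 39 of the 57 TRIM genes were tested (68.4%, against 66.1% of all 19938 named genes). Of these 39, 33 lay above that level on every array. The other 6 were Trim12c, Trim21, Trim46, Trim50, Trim66 and Trim80, and a gene that is bright in 1 group only could pass in that way. The 18 untested genes were Trim7, Trim9, Trim10, Trim14, Trim15, Trim29, Trim30a, Trim30d, Trim31, Trim38, Trim40, Trim42, Trim52, Trim55, Trim58, Trim69, Trim72 and Trim75. Trim58 and Trim72 lay above the level on 1 array each and the other 16 on 0. Levels of different probe sets were not compared.

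The ES cell markers Pou5f1, Nanog, Sox2, Zfp42, Esrrb, Dppa5a and Utf1 lay above that level on every array, as the label requires. Their summed intensity was 15.28 to 15.36 with mock, 15.16 to 15.20 with let-7c and 15.33 to 15.41 with miR-294 (log2). Of the 7, 5 fell with let-7c and 0 rose, while 3 rose with miR-294 and 0 fell. Over all genes tested, 14.8% fell and 13.9% rose with let-7c at an adjusted p under 0.05. With miR-294, 21.1% fell and 20.7% rose. Of 7 fibroblast markers 6 were tested. Sums here cover every listed marker, tested or not. Most of the fibroblast sum came from Fn1. That sum was 12.64 to 12.68 with mock, 12.63 to 12.69 with let-7c and 12.60 to 12.68 with miR-294. Twist1 rose with let-7c (0.31, adjusted p = 0.0201) and Col3a1 with miR-294 (0.16, adjusted p = 0.0372), and 0 of the 6 fell with either. With let-7c the sums of the primitive endoderm markers (9.76 to 9.86, against 9.57 to 9.71 with mock; 3 of 5 tested) and the trophoblast markers (9.53 to 9.57, against 9.35 to 9.45; 3 of 5 tested) were higher. Gata4 (0.31) and Gata3 (0.48) were the genes of those lists that rose. With miR-294 the sums were 9.63 to 9.71 for primitive endoderm and 9.43 to 9.53 for trophoblast markers, and both ranges overlapped mock. The part of these shifts in the TRIM differences was not tested, and in bulk RNA fewer cells of a type and less RNA per cell cannot be told apart.

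With let-7c, 5 of the 39 tested TRIM genes were higher than mock and 8 were lower at a Benjamini-Hochberg adjusted p under 0.05 in limma. Over all 13182 genes tested, 28.7% were called in this comparison, 13.9% higher and 14.8% lower; the TRIM share of 33.3% lies near that background. The count of 5 was 3 without let-7c replicate 1 or 3, 2 without mock replicate 3, and 3 with no filter or with every probe set tested. With miR-294, 4 were higher and 11 lower, a share of 38.5% against 41.9% of all genes (20.7% higher, 21.1% lower). The 11 include Trim12c, which was tested only through the groups where it was high and is set aside below. Median log2 differences of the 39 were 0.03 and -0.05, against 0.02 for all genes in each comparison. The share of TRIM genes called is thus no result about the family, and what follows concerns single members. Between the mimics, 13 were higher and 10 lower with let-7c than with miR-294, 59.0% against 50.8% of all genes (26.2% higher, 24.5% lower). The 13 again include Trim12c. Both comparisons with mock use the same 3 mock arrays. Among the 39 genes the median SD within a group was 0.0697 log2 units on the mock arrays, 0.0592 on those with let-7c and 0.0768 on those with miR-294 (n = 3).

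**Figure D1:**
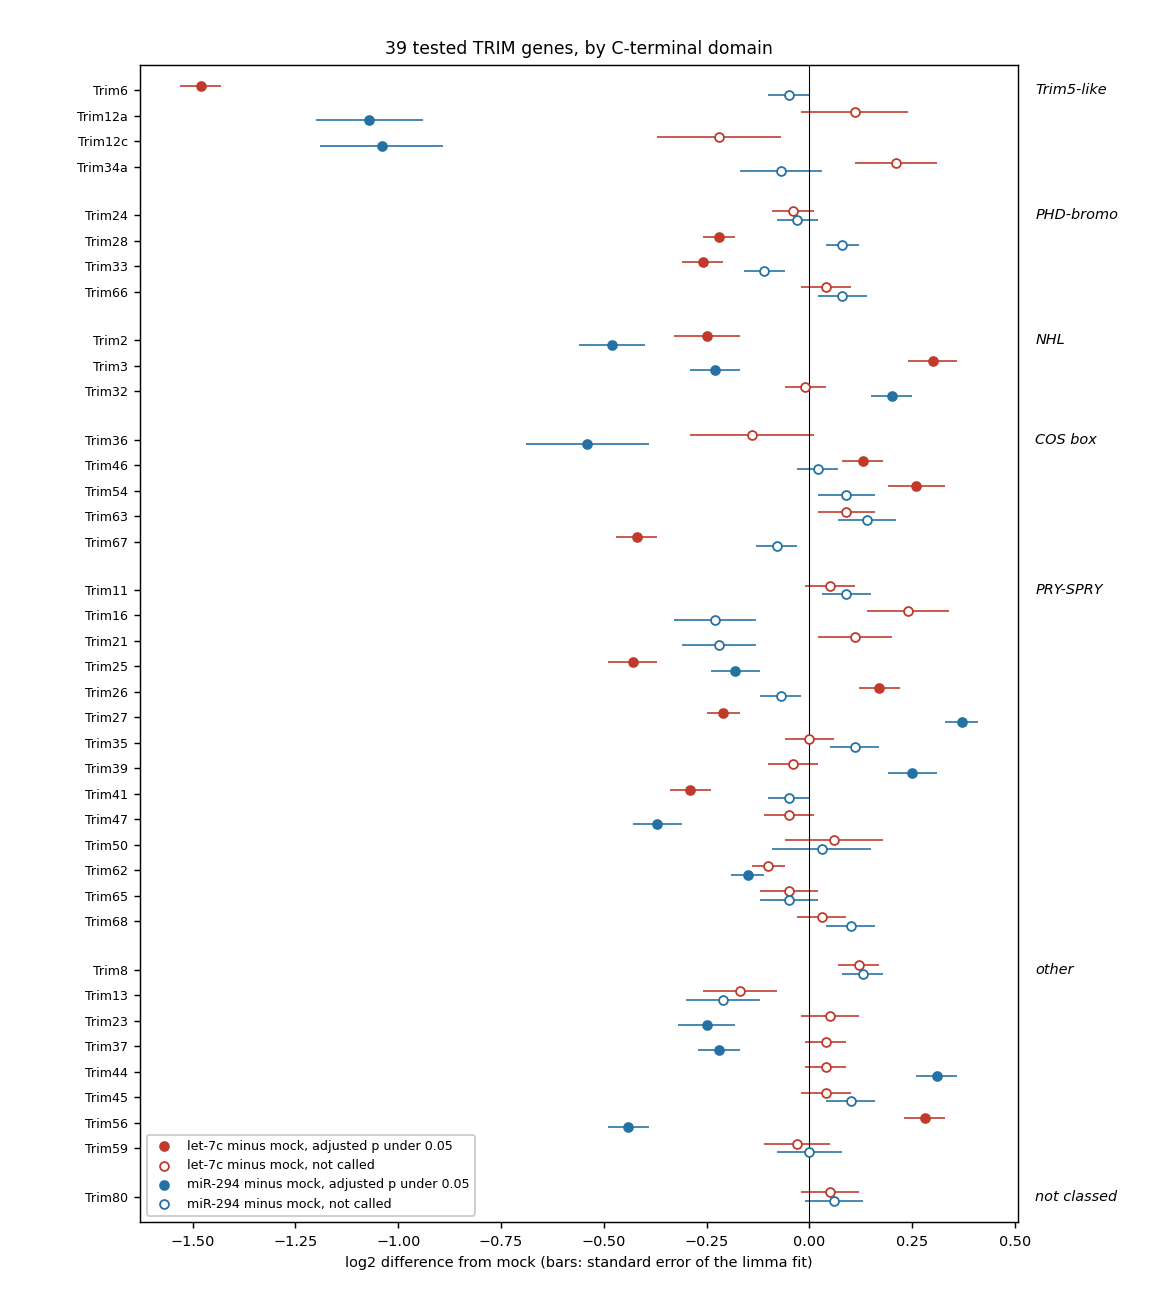
Log2 difference from mock (x axis, bars are standard errors of the limma fit) for each of the 39 tested TRIM genes, with let-7c in red and miR-294 in blue, ordered by C-terminal domain; filled points passed an adjusted p of 0.05. Trim6 with let-7c (-1.48) and Trim12a and Trim12c with miR-294 (-1.07 and -1.04) lie far from the other genes, which stay between -0.54 and 0.37. Trim12c was tested only through the groups where it was high, so its point is set aside in the text.

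Trim6 was the TRIM gene with the largest fall. It encodes a ubiquitin ligase that acts in the interferon response and has been reported to bind Myc in ES cells. It read 10.45, 10.43 and 10.46 on the mock arrays (replicates 1 to 3), 8.98, 8.89 and 9.04 with let-7c, and 10.42, 10.33 and 10.44 with miR-294. All let-7c arrays lay far below all others, while the miR-294 and mock arrays overlapped. The difference from mock was -1.48 ± 0.05 with let-7c (SE, n = 3 per group, adjusted p = 4.66e-08), a level 2.79-fold lower; here and below, ± after a difference is its standard error. With miR-294 it was -0.05 ± 0.05 (adjusted p = 0.461). The mimics differed directly by -1.43 ± 0.05 (adjusted p = 9.39e-09). Only 0.144% of all tested genes were called at least 2-fold lower with let-7c than with mock, and Trim6 was the 1 TRIM gene of the 39 among them.

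Trim12a and Trim12c, mouse relatives of the retroviral restriction factor TRIM5, were low with miR-294. Trim12a read 8.22, 8.20 and 8.26 with mock, 7.29, 6.92 and 7.26 with miR-294, and 7.98, 8.47 and 8.56 with let-7c. Trim12a fell with miR-294, where every array lay below every other array; let-7c replicate 1 was the lowest let-7c array and lay below mock, while the other two lay above it. The difference was -1.07 ± 0.13 with miR-294 (adjusted p = 9.01e-05; 2.10-fold lower) and 0.11 ± 0.13 with let-7c (adjusted p = 0.562). Trim12c read 7.72, 7.73 and 7.66 with mock, 6.81, 6.49 and 6.69 with miR-294, and 7.04, 7.69 and 7.71 with let-7c. All 3 miR-294 arrays were under the 40th percentile, so it entered the fit only through the let-7c and mock arrays, where it was high. Its call with miR-294 therefore supports nothing here: the measured means were 6.66 with miR-294 and 7.70 with mock, the first near the dim end of the array. With let-7c it differed by -0.22 ± 0.15 (adjusted p = 0.294), and replicate 1 was again the low array. Between the mimics, Trim12a was 1.18 ± 0.13 higher on the let-7c arrays (adjusted p = 2.28e-05). Leaving Trim12c aside, Trim12a was the 1 TRIM gene called with a fall of 2-fold or more with miR-294, where 0.706% of all genes were.

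Both belong to a gene cluster on mouse chromosome 7, whose protein-coding genes run in the order Trim6, Trim34a, Trim5, Trim12a, Trim34b, Trim12c, Gm38525, Trim30b, Trim30c, Trim30a and Trim30d in RefSeq's GRCm38.p6 table. These genes are close relatives, and their probes may pick up RNA of each other. A probe set assigned to Trim5, Trim12a and Trim12c together, and so no member, read 8.09 to 8.17 with mock, 8.09 to 8.23 with let-7c and 6.93 to 7.24 with miR-294. Another, shared by Trim5 and Trim12c, read 7.79 to 7.87, 7.75 to 7.93 and 6.98 to 7.13. Both were low on every miR-294 array, as the set for Trim12a was, but which of the related genes carried the fall cannot be told apart. Trim34a, their neighbour, read 7.67, 7.58 and 7.77 with mock, 7.66, 7.43 and 7.72 with miR-294, and 8.03, 7.65 and 7.98 with let-7c, so all groups overlapped. It was not called with miR-294 (-0.07 ± 0.10, adjusted p = 0.619) or with let-7c (0.21 ± 0.10, adjusted p = 0.143), though the let-7c difference passed with the replicate number as a block (adjusted p = 0.0152) and without let-7c replicate 2 (0.0185). Between the mimics Trim34a was 0.28 ± 0.10 higher with let-7c (adjusted p = 0.0383), a call lost in 8 of the 17 alternative analyses that tested it. Trim30a and Trim30d were too dim to test in any group.

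**Figure D2:**
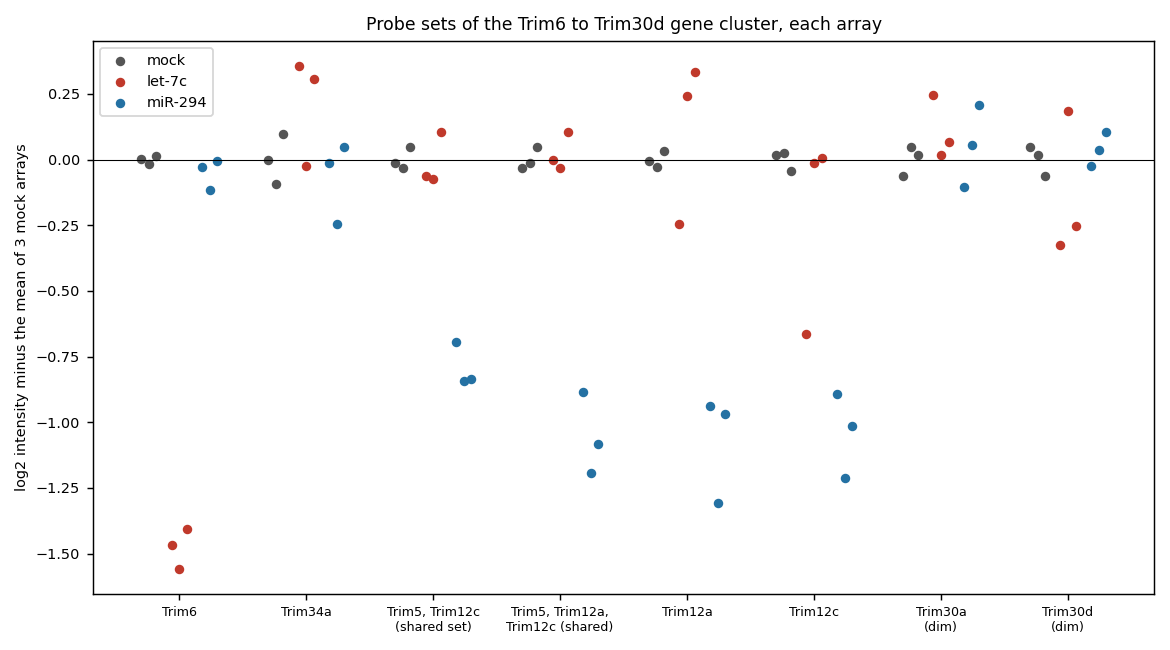
Log2 intensity minus the mean of the mock arrays (y axis) for 8 probe sets of the cluster on chromosome 7, with 1 point per array. Trim6 is low on the let-7c arrays, and the 4 probe sets of Trim12a, Trim12c and Trim5 are low on all miR-294 arrays, with let-7c replicate 1 also low for Trim12c. The Trim12c set was tested only through the groups where it was high.

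Several TRIM genes are induced by interferon through a promoter element bound by interferon regulatory factors. The windows from 250 bases before to 50 after the start site were searched on both strands for GAAANNGAA, a shortened core of that element (TTCNNTTTC on the other strand). RefSeq's promoter table (GRCm38.p6) held 45 of the 57 members, of which 10 had a match (22.2%, against 9.76% of 27025 genes). The 10 were Trim2, Trim7, Trim12a, Trim12c, Trim21, Trim25, Trim26, Trim30a, Trim30d and Trim34a. Trim12a, Trim12c, Trim30a, Trim30d and Trim34a are relatives from the 1 gene cluster above, so the 10 are not independent genes. A form with a further A at its end, searched first, matched fewer genes overall and left out Trim7 and Trim25. Counted as windows, 11 of 59 member windows (18.6%) and 8.56% of all 32851 held it. The promoters of Trim12a and Trim12c are shown with those of their relative Trim34a and of Trim21, since all 4 hold the motif, in capitals. On the minus strand of chromosome 7 lie Trim12a (chr7:104315446-104315745), Trim12c (chr7:104353300-104353599) and Trim21 (chr7:102565433-102565732), and on the plus strand lies Trim34a (chr7:104244207-104244506). Each is printed 5′ to 3′ along its gene.
Trim12a: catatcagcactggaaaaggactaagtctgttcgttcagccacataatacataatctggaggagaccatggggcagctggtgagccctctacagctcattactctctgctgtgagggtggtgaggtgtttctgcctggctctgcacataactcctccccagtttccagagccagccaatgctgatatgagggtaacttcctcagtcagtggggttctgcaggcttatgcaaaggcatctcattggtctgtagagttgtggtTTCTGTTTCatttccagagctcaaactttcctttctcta
Trim12c: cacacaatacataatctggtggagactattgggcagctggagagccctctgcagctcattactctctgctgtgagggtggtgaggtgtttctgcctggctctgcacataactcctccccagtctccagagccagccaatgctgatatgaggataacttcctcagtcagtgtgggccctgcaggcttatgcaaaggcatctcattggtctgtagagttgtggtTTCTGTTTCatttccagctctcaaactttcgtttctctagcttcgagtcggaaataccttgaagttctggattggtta
Trim34a: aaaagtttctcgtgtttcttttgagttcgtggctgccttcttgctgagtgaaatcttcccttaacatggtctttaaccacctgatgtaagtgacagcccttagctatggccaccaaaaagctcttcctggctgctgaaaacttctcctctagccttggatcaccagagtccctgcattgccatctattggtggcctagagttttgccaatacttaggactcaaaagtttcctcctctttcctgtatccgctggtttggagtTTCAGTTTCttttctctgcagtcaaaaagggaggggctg
Trim21: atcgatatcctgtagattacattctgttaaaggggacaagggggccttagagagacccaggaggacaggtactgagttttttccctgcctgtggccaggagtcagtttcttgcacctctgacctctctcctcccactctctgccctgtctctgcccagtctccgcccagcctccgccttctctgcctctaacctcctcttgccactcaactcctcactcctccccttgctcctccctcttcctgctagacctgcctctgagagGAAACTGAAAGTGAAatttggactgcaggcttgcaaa
The Trim12a and Trim12c windows share an identical run of 71 bases. In Trim21, 2 overlapping matches form the capitals. Of the 7 tested members with a match, 1 was higher and 2 were lower with let-7c, and 0 were higher and 4 lower with miR-294 (Trim2, Trim12a, Trim25 and Trim12c, which was tested only through its high groups). Of the 23 tested members with a window but no match, 3 were higher and 5 lower with let-7c, and 4 higher and 5 lower with miR-294. Over all genes 13.9% were higher and 14.8% lower with let-7c, and 20.7% higher and 21.1% lower with miR-294; no difference between these groups was tested. A match describes the letters of the window and was not tested as a site.

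Among the chromatin TRIM genes, 2 of 4 fell with let-7c and 0 of 4 were called with miR-294. Over all genes, 14.8% were lower with let-7c and 41.9% were called with miR-294. With only 4 genes, no trait of the class can be read from these counts. Trim28 read 13.08, 13.08 and 13.06 with mock, 12.84, 12.85 and 12.86 with let-7c, and 13.09, 13.16 and 13.20 with miR-294. The let-7c arrays lay below all mock arrays, a small fall with a narrow spread (-0.22 ± 0.04, adjusted p = 0.00319; 1.17-fold lower). With miR-294 it was not called (0.08 ± 0.04, adjusted p = 0.176; 0.0434 where the variance prior was robust and followed intensity), and the mimics differed by -0.30 ± 0.04 (adjusted p = 0.000142). Trim33 (TIF1-gamma), which acts with Smad proteins downstream of TGF-beta, read 10.06, 10.14 and 10.15 with mock and 9.75, 9.93 and 9.88 with let-7c. It fell by 0.26 (SE 0.05, adjusted p = 0.00425), and with miR-294 it did not pass (-0.11 ± 0.05, adjusted p = 0.131). Trim24 (TIF1-alpha), a nuclear receptor cofactor, read 10.99, 11.07 and 11.00 with mock, 10.93, 11.07 and 10.94 with let-7c, and 10.98, 11.04 and 10.94 with miR-294, so all groups overlapped. Its differences were -0.04 ± 0.05 and -0.03 ± 0.05 (adjusted p = 0.628 and 0.633). Trim66 was close to the dim end of the array and was not called.

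The cofactors of Trim28 were read from a list of 20 genes, all tested. With let-7c 9 fell and 1, Chd3 (0.20), rose, with a list median of -0.13, where 14.8% of all genes were lower and 13.9% higher. Of the 9, Zfp42 (-0.28) is also on the list of ES cell markers. Smarcad1, a remodeller that binds Trim28, fell by 0.63, and Setdb1, the histone H3 lysine 9 methyltransferase that Trim28 recruits, fell by 0.48 (SE 0.05, adjusted p = 5.1e-05). Cbx5, for the heterochromatin protein HP1-alpha, fell by 0.48 as well, and the maintenance and remodelling genes Dnmt1 (-0.14), Uhrf1 (-0.13) and Chd4 (-0.24) fell by less. With miR-294 3 rose (Cbx1 0.35, Uhrf1 0.25 and Zfp42 0.21), 3 fell (Chd4 -0.25, Atf7ip -0.24 and Dnmt1 -0.17) and the median was 0.01, against 20.7% of all genes higher and 21.1% lower. Setdb1 did not pass there (0.03 ± 0.05, adjusted p = 0.595), and the mimics differed for it by -0.51 ± 0.05 (adjusted p = 5.18e-06).

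**Figure D3:**
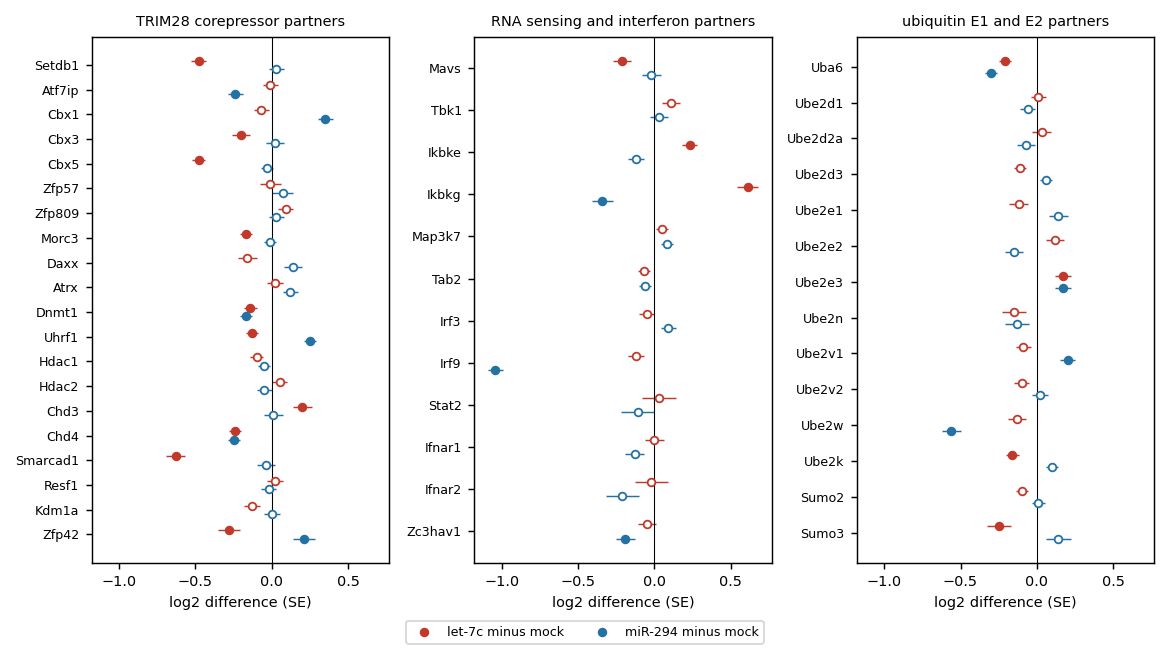
Log2 difference from mock (x axis, bars are standard errors) for the tested genes of 3 partner lists, with let-7c in red and miR-294 in blue; filled points passed an adjusted p of 0.05. Smarcad1, Setdb1 and Cbx5 are low with let-7c, Irf9 (-1.04) and Ube2w (-0.56) are low with miR-294, and Ikbkg is high with let-7c (0.61) and low with miR-294 (-0.34).

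The NHL-repeat genes moved in different directions. Trim3, a ubiquitin ligase studied in neurons, read 9.14, 9.10 and 9.10 with mock, 9.41, 9.37 and 9.46 with let-7c, and 8.79, 8.86 and 9.00 with miR-294. No group overlapped another, with let-7c highest and miR-294 lowest. Trim3 rose with let-7c (0.30 ± 0.06, adjusted p = 0.0026) and fell with miR-294 (-0.23 ± 0.06, adjusted p = 0.00676), and the mimics differed by 0.53 ± 0.06 (adjusted p = 1.34e-05). Trim2, a related neuronal ligase, read 8.53, 8.48 and 8.28 with mock, 8.24, 8.13 and 8.18 with let-7c, and 8.03, 8.03 and 7.80 with miR-294. Both mimics left it below every mock array, with -0.48 ± 0.08 for miR-294 (adjusted p = 0.000601) and -0.25 ± 0.08 for let-7c (adjusted p = 0.0372). The let-7c call for Trim2 was lost when let-7c replicate 1 (adjusted p = 0.0502), 2 (0.104) or 3 (0.0886) or mock replicate 1 (0.126) or 2 (0.115) was left out, and with no filter (0.068) or every probe set tested (0.075). Trim32, whose protein has been reported to bind Argonaute and raise let-7 activity in neural progenitors, read 8.23, 8.19 and 8.25 with mock and 8.42, 8.47 and 8.38 with miR-294. It rose with miR-294 (0.20 ± 0.05, adjusted p = 0.00475) and was not called with let-7c (-0.01 ± 0.05, adjusted p = 0.867).

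Of the 8 genes with a COS box, 5 were tested. Trim67, a brain-enriched gene, read 8.57, 8.60 and 8.70 with mock, 8.16, 8.27 and 8.16 with let-7c, and 8.51, 8.58 and 8.55 with miR-294. It fell with let-7c (-0.42 ± 0.05, adjusted p = 0.000165), where no array overlapped mock, and was not called with miR-294 (-0.08 ± 0.05, adjusted p = 0.258). Trim36, a microtubule-associated ligase, varied more between replicates, at 8.49, 8.93 and 8.75 with mock, 8.04, 8.37 and 8.15 with miR-294 and 8.21, 8.76 and 8.79 with let-7c. It fell with miR-294 (-0.54 ± 0.15, adjusted p = 0.0164), but did not pass once miR-294 replicate 1 (0.058) or mock replicate 2 (0.0666) was left out. Between the mimics Trim36 was 0.40 ± 0.15 higher with let-7c (adjusted p = 0.0489), a call lost in 10 of 18 alternative analyses. Trim54, a muscle ring finger gene that acts at the sarcomere, rose with let-7c from 7.85, 7.82 and 7.69 to 8.10, 8.04 and 7.99 (0.26 ± 0.07, adjusted p = 0.0163), which did not pass once let-7c replicate 1 (0.0562) or mock replicate 3 (0.0667) was left out. Trim46, which bundles microtubules in axons, read 6.87, 6.85 and 6.86 with mock and 7.02, 6.97 and 6.99 with let-7c. These values lie near the filter level of 6.84 to 6.90, which 3 let-7c, 2 mock and 1 miR-294 arrays exceeded. It was called higher with let-7c by 0.13 ± 0.05 (adjusted p = 0.0497). That call was lost on leaving out any 1 let-7c array (0.118, 0.0666 and 0.103 for replicates 1 to 3) or any 1 mock array (0.0939, 0.131 and 0.109). It was also lost without miR-294 replicate 1 (0.053) or 2 (0.0596). The same held with no filter (0.101), quantile normalization (0.0913), a robust variance prior that followed intensity (0.168) or every probe set tested (0.066).

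The antiviral PRY-SPRY gene Trim25 encodes a ligase for the RNA sensor RIG-I and a cofactor in the blocking of let-7 precursors by Lin28a. It read 10.50, 10.61 and 10.66 with mock, 10.05, 10.19 and 10.25 with let-7c, and 10.38, 10.42 and 10.44 with miR-294. All let-7c arrays lay below the miR-294 arrays, and those below the mock arrays. It fell with let-7c (-0.43 ± 0.06, adjusted p = 0.000447; 1.35-fold lower) and by less with miR-294 (-0.18 ± 0.06, adjusted p = 0.0356), and the mimics differed by -0.25 ± 0.06 (adjusted p = 0.00448). For miR-294 the call was lost when miR-294 replicate 1 (adjusted p = 0.0937), 2 (0.0745) or 3 (0.0555) or mock replicate 2 (0.0991) or 3 (0.123) was left out, and with no filter (0.0661), every probe set tested (0.0615) or centring on the 75th percentile (0.0534).

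Trim27, a transcriptional repressor and ligase, was the 1 TRIM gene called lower with let-7c and higher with miR-294. It read 10.43, 10.39 and 10.39 with mock, 10.22, 10.18 and 10.19 with let-7c, and 10.77, 10.77 and 10.79 with miR-294. The spread within each group was far smaller than the gaps between them. The differences were -0.21 ± 0.04 (adjusted p = 0.00288) with let-7c and 0.37 ± 0.04 (adjusted p = 2.72e-05) with miR-294, and between the mimics -0.58 ± 0.04 (adjusted p = 5.16e-07). Trim56, a positive regulator of nucleic acid sensing that has none of the 4 C-terminal domains above, went the other way. It read 9.23, 9.18 and 9.14 with mock, 9.46, 9.43 and 9.49 with let-7c, and 8.80, 8.65 and 8.76 with miR-294. It rose with let-7c (0.28 ± 0.05, adjusted p = 0.00195) and fell with miR-294 (-0.44 ± 0.05, adjusted p = 4.02e-05), and the mimics differed by 0.72 ± 0.05 (adjusted p = 5.63e-07). Its 3 groups of arrays did not overlap.

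**Figure D4:**
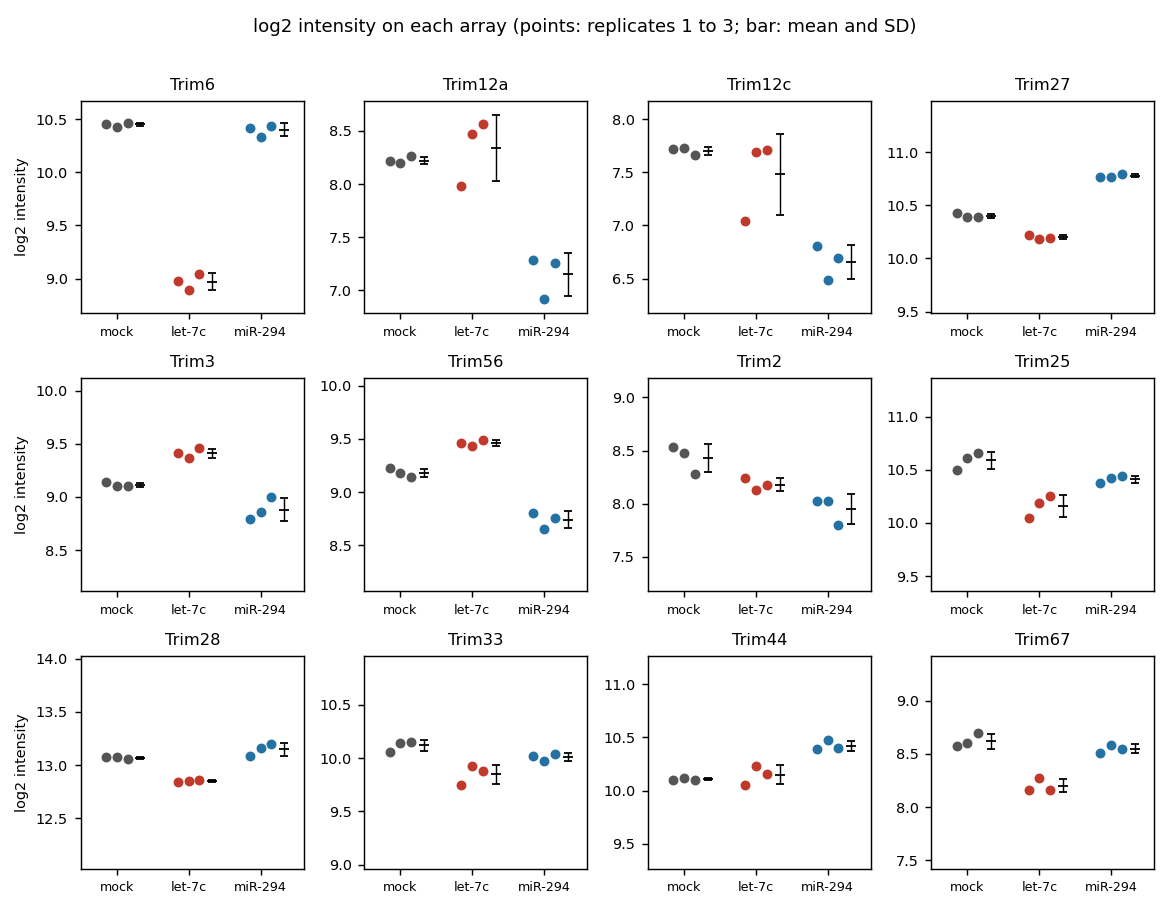
Log2 intensity on each array (y axis, with each panel spanning at least 2 units) for 12 TRIM genes under mock, let-7c and miR-294; points are replicates 1 to 3 and the bar beside them is the mean and SD. Trim6 is low with let-7c, and Trim12a is low with miR-294. Trim12c, also low there, was tested only through the groups where it was high. Trim27 is low with let-7c and high with miR-294, while Trim3 and Trim56 are high with let-7c and low with miR-294.

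Of the further PRY-SPRY genes, Trim41 fell with let-7c, from 9.53, 9.64 and 9.50 to 9.26, 9.21 and 9.34 (-0.29 ± 0.05, adjusted p = 0.00203), against -0.05 ± 0.05 with miR-294 (adjusted p = 0.476); the mimics differed by -0.24 ± 0.05 (adjusted p = 0.00241). Trim26, a ligase of the interferon pathway, was called higher with let-7c by 0.17 ± 0.05 (adjusted p = 0.0325), which did not pass once let-7c replicate 2 (0.0919) or 3 (0.0696) or mock replicate 1 (0.0613) or 3 (0.124) was left out, with no filter (0.0664) and with every probe set tested (0.0559). Trim47 fell with miR-294, from 8.31, 8.45 and 8.36 to values between 7.89 and 8.11 (-0.37 ± 0.06, adjusted p = 0.000659). Trim39, a regulator of the anaphase-promoting complex, rose with miR-294 from 8.12, 8.10 and 8.23 to 8.40, 8.47 and 8.33 (0.25 ± 0.06, adjusted p = 0.00408), and neither was called with let-7c (-0.05 and -0.04). Trim62 fell slightly with miR-294 (-0.15 ± 0.04, adjusted p = 0.0112).

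Trim16, which helps clear damaged lysosomes, read 7.91, 7.70 and 7.55 with mock, 7.99, 7.92 and 7.95 with let-7c, and 7.72, 7.33 and 7.40 with miR-294. It was called between the mimics (0.47 ± 0.10, adjusted p = 0.00256). Its differences from mock (0.24 ± 0.10 and -0.23 ± 0.10, adjusted p = 0.111 and 0.0918) passed with a replicate block (0.025 and 0.0193). So did that of Trim21, the cytosolic antibody receptor, with miR-294 (-0.22 ± 0.09, adjusted p = 0.0557; blocked 0.0107). Between the mimics Trim21 differed, with let-7c above miR-294 (0.34 ± 0.09, adjusted p = 0.00612). The Trim16 difference from mock also passed without miR-294 replicate 1 (0.0476 for let-7c, 0.0104 for miR-294), without mock replicate 1 (0.0387 for let-7c) and without mock replicate 3 (0.0389 for miR-294). That of Trim21 with miR-294 passed without miR-294 replicate 3 (0.0172), without mock replicate 1 (0.0286) and under quantile normalization (0.0332). Trim11, Trim35, Trim50, Trim65 and Trim68 were not called in any comparison, though Trim68 passed with miR-294 without miR-294 replicate 2 (0.0328).

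Of the remaining classes, Trim44, which lacks a RING domain, rose with miR-294 from 10.10, 10.12 and 10.10 to 10.39, 10.48 and 10.40 (0.31 ± 0.05, adjusted p = 0.000719) and was not called with let-7c (0.04 ± 0.05, adjusted p = 0.62). Trim37, a ligase of peroxisomes and centrosomes, fell with miR-294 from 10.47, 10.58 and 10.47 to 10.27, 10.35 and 10.25 (-0.22 ± 0.05, adjusted p = 0.00436). Trim23, which ends in an ARF GTPase domain, fell with miR-294 by 0.25 (SE 0.07, adjusted p = 0.0182), which did not pass once miR-294 replicate 2 (0.0528) or 3 (0.0738) or mock replicate 1 (0.0667) or 2 (0.0516) was left out. Trim13, a ligase of the endoplasmic reticulum, missed the threshold with miR-294 (-0.21 ± 0.09, adjusted p = 0.0705) and passed with a replicate block (0.031), with miR-294 replicate 1 left out (0.00973) and where the variance prior was robust and followed intensity (0.0463). Trim8 read 9.66, 9.53 and 9.49 with mock and 9.66 to 9.71 with miR-294; it missed the threshold narrowly (0.13 ± 0.05, adjusted p = 0.0559) and passed without mock replicate 1 (0.0179), as it did with let-7c (0.12, adjusted p = 0.0361 without that array), and with miR-294 under 4 other settings (0.0255 to 0.0383). Trim45, Trim59 and Trim80 were not called in any comparison, nor was Trim63, which passed with miR-294 without miR-294 replicate 2 (0.0277).

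Partners of the antiviral TRIM proteins were read from a list of 19 genes of RNA sensing and interferon signalling, of which 16 were matched and 12 tested. With let-7c 2 rose (Ikbkg 0.61 and Ikbke 0.23) and 1 fell (Mavs -0.21). Ikbkg encodes NEMO, the scaffold of the kinase complex that several TRIM proteins modify, and Ikbke the kinase that Trim6 is known to activate. With miR-294 0 rose and 3 fell: Irf9 (-1.04 ± 0.05, adjusted p = 2.22e-07), Ikbkg (-0.34 ± 0.07, adjusted p = 0.00179) and Zc3hav1 (-0.19). Irf9, the DNA-binding part of the interferon-activated complex ISGF3, read 8.81 to 8.90 with mock, 8.65 to 8.83 with let-7c and 7.76 to 7.86 with miR-294. The sensor genes Ifih1 and Dhx58, Irf7 and the interferon gene Ifnb1 were too dim to test. List medians were -0.01 with let-7c and -0.11 with miR-294, and the 3 of 12 called in each comparison are no more than the background of 28.7% and 41.9% of all genes.

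Of 14 tested ubiquitin-activating and ubiquitin-conjugating genes and SUMO genes, 1 was called higher and 3 lower under let-7c, and 2 higher and 2 lower under miR-294, with medians of -0.11 and 0.02. Over all genes 28.7% and 41.9% were called, so these counts are no more than the background. Ube2w, whose product attaches the initial ubiquitin to TRIM5 and Trim21, fell with miR-294 (-0.56 ± 0.06, adjusted p = 5.1e-05) and was not called with let-7c (-0.13 ± 0.06, adjusted p = 0.165). Uba6, another ubiquitin-activating enzyme, fell with both (-0.21 with let-7c and -0.30 with miR-294). Of 5 tested genes of TRIM-like structure with other names, Rnf135, which activates RIG-I, was the 1 called, at -0.24 with let-7c (adjusted p = 0.0226) and -0.19 with miR-294 (adjusted p = 0.0449). Pml, which organises nuclear bodies, and Mid1, a microtubule-associated ligase, were not called with either mimic.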

How the data were processed

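RNA was measured on 1-colour arrays in 9 samples. The deposited table gives 1 log2 intensity per probe set and array, made by the authors with GCRMA per the submitters' processing notes; its version, settings and scale were not stated in the sources used here. Array medians were 7.36 to 7.41, and the lowest correlation of arrays within a group was 0.995. The number of arrays limits the precision.

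Of all probe sets 21789 had 1 symbol, 1621 several and 12147 none (GEO's platform annotation, symbols updated through gene IDs). Each gene was represented by its brightest probe set on average. Each TRIM gene had 1 probe set, and 6 further Trim probe sets with several symbols were left out. All 13182 tested genes were fitted together in limma 3.58.1 (R 4.3.3, lmFit and eBayes, 6 residual degrees of freedom, two-sided, Benjamini-Hochberg over all of them), after a test of the code on simulated data. The replicates are labelled biological.

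Same-numbered samples deviated together from their group means for let-7c and mock (correlations 0.42, 0.30 and 0.13 across genes) and for miR-294 and mock (0.36, 0.27 and 0.28), less so for let-7c and miR-294 (0.21, 0.25 and 0.03). A replicate block was therefore run as an alternative and is given where it changes a call against mock.

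Picked for description were the 6 largest called rises and falls per comparison and 9 set genes. The 9 were Trim2, Trim3, Trim6, Trim24, Trim25, Trim27, Trim28, Trim32 and Trim33. Array values and differences between the mimics are not printed for every gene picked. The members, lists and tests were chosen with earlier results of these data known. Domain classes are from general knowledge.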

Additional observations from a re-analysis of the deposited data

How the results depend on the processing

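Under 18 alternatives (another filter, normalization, variance model, set of samples or probe set rule, a replicate block, and each array left out in turn), 0 of the 117 differences of the tested TRIM genes changed sign while called. Of the calls, 9 of 13 with let-7c, 12 of 15 with miR-294 and 19 of 23 between the mimics passed under every alternative in which the gene was tested. Trim12c, tested only through its high groups, is among those that passed with miR-294 and between the mimics. Those lost between the mimics were Trim2, Trim33, Trim34a and Trim36. The count of genes higher with let-7c than mock, 5, was 3 with no filter and 3 with every probe set tested, and 2 to 5 with each array left out. Leaving out arrays gave 7 to 8 lower with let-7c, 4 to 6 higher and 8 to 11 lower with miR-294, and 10 to 13 higher and 9 to 10 lower between the mimics. With the replicate block 7 genes were higher and 8 lower than mock with let-7c, and 4 were higher and 14 lower with miR-294; the calls it added are those of Trim13, Trim16, Trim21 and Trim34a given above, and it removed none. Filters, normalizations and array omissions moved Trim6 with let-7c within -1.51 to -1.44. Trim12c dropped out under the stricter filter, as did Trim16, Trim21, Trim34a, Trim45, Trim46, Trim50, Trim62, Trim63, Trim65, Trim66, Trim68 and Trim80. Dim probe sets cannot show small changes.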
